A study of Mus musculus with 11 samples.

Results

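The genes described here encode potassium channels of the mouse embryonic cortex. They are the 79 genes, of 46078 counted, whose symbol is Kcn followed by 1 letter from a to v and a number, other than Kcne2. Choosing them by symbol used no measured value. All 79 were found in the counted annotation, and 53 of them (67.1%) reached 1 CPM (a gene's counts scaled to a common library total) in at least 3 of the 11 libraries, against 15112 of all 46078 genes (32.8%). All 79 are annotated as protein-coding, while the 46078 also hold noncoding genes such as Xist, so these shares compare unlike sets. Of the remaining 26, 23 had counts somewhere, and Kcna10, Kcnj1 and Kcnk16 had 0 counts in all 11 libraries. Kcns3 was the last gene inside that limit, with a third-highest value of 1.02 CPM, and Kcnj15 was the first outside, at 0.908 CPM.

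Messenger RNA was sequenced from CD-1 mouse embryos in 5 groups. Gain libraries (3) hold GFP-positive cells sorted at E15.5 from wild-type brains electroporated at E12.5 with the plasmid pCIG2 carrying L3mbtl3, a chromatin protein that the series' title links to the Polycomb complex PRC1 and to cortical neurogenesis. GFP control libraries (3) hold cells sorted in the same way after electroporation of pCIG2 alone. The E12.5 libraries come from microdissected dorsal telencephalon and were neither electroporated nor sorted: 2 are labelled L3mbtl3 -/- (KO), 2 L3mbtl3 +/- and 1 wild-type, the last 2 groups serving together as E12.5 controls. The electroporated plasmid marks whichever cells took it up and their progeny, and the labels name neither the promoter of the plasmid nor the part of L3mbtl3 that is deleted. They do not say whether a library is 1 embryo or a pool, so a p-value compares the arms with the variation of these libraries, part of which may be technical.

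Library totals ran from 16527551 to 26658718 counts, so that 3 counts, the limit that a count of 0 allows, came to 0.113 to 0.182 CPM. L3mbtl3 itself was at 824 to 1411 CPM in gain libraries and 46.4 to 52.9 CPM in GFP controls. It was at 74.5 and 77.2 CPM in the libraries labelled KO and 61.5 to 64.7 CPM in E12.5 controls, and was called higher in the libraries labelled KO (log2 fold change 0.27, adjusted p = 0.0128 by edgeR, and 0.0550 without KO replicate 2). A whole-gene count does not check an allele whose deleted part is not given. The cortex was represented in all libraries, since the summed level of 5 cortical genes (Emx1, Emx2, Lhx2, Neurod6 and Tbr1) was 2091 to 2230.0 CPM in gain, 1570.2 to 2615 CPM in GFP control, 1064 to 1127 CPM in KO and 1144 to 1203 CPM in E12.5 control libraries. The sorted libraries differed in markers of ventral telencephalon and GABAergic neurons, 8 genes that summed to 202, 193 and 11.5 CPM in gain replicates 1 to 3 and 782, 241 and 12.6 CPM in GFP control replicates 1 to 3. By whether Xist or summed Y-linked counts were higher, gain replicates 1 and 3 and KO replicate 2 were classed as female and the others as male. This rule would also give a pool of both sexes a single label.

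Potassium channels let potassium ions leave or enter a cell along their gradient and so set its resting potential and end its action potentials. Voltage-gated families (Kv, the KCNQ or M-type channels, and the EAG, ERG and ELK channels) open on depolarisation, calcium-activated SK channels open when calcium rises, two-pore K2P channels leak at rest, and inward rectifiers (Kir) carry current best near the resting potential. Silent Kv subunits form no channel alone and modify their partners, and KCNE proteins are accessory subunits. In the developing cortex, progenitors keep a hyperpolarised resting potential through leak and Kir conductances, while neurons add voltage-gated channels as they mature.

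By family, the members and those that reached the 1 CPM limit were 17 and 14 for Kv pore-forming subunits, 10 and 5 for silent Kv, 8 and 6 for EAG, ERG and ELK, 5 and 5 for KCNQ, 15 and 8 for Kir, 14 and 8 for K2P, 4 and 3 for the SK family with its intermediate-conductance relative Kcnn4, 3 and 3 for the sodium-activated Slo channels with Kcnu1, and 3 and 1 for KCNE. Promoter sequences around the annotated starts, 250 bases before to 50 after, were available from RefSeq (GRCm38.p6) for 55 members with 70 starts. The following 5 belong to genes on which the comparisons turn: Kcnc1 was higher in sorted E15.5 cells than in E12.5 tissue, Kcnk5 and Kcnj13 were lower there, and Kcnj10 and Kcnn3 moved in opposite directions in the libraries labelled KO. Sequences run 5′ to 3′ on the gene's strand, with CG dinucleotides and, in Kcnj13, a TATAAA motif in capitals.
Kcnc1 (chr7:46396218-46396517, plus strand): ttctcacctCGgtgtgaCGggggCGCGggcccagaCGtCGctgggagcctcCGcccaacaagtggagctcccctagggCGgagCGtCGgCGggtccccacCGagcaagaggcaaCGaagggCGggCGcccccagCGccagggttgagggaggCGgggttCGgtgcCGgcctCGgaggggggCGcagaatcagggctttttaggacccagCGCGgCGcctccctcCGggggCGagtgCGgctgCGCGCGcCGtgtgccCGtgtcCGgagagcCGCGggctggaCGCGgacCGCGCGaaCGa
Kcnk5 (chr14:20181733-20182032, minus strand): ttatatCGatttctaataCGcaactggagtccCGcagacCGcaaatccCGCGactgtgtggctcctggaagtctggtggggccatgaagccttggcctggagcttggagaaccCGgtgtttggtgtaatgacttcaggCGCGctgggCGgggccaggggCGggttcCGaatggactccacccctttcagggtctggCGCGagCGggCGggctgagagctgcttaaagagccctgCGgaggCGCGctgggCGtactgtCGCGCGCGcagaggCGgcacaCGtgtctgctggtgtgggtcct
Kcnj10 (chr1:172340960-172341259, plus strand): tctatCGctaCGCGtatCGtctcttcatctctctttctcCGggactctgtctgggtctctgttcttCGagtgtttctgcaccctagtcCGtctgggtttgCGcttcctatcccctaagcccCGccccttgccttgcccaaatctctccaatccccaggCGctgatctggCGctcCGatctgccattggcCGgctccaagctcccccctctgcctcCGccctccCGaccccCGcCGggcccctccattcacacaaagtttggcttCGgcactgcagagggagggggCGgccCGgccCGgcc
Kcnn3 (chr3:89519914-89520213, plus strand): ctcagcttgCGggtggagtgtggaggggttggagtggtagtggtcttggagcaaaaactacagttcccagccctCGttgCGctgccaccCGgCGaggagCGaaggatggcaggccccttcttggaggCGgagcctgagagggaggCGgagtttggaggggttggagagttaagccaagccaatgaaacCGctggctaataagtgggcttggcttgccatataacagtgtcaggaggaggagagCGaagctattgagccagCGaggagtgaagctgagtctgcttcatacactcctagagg
Kcnj13 (chr1:87394680-87394979, minus strand): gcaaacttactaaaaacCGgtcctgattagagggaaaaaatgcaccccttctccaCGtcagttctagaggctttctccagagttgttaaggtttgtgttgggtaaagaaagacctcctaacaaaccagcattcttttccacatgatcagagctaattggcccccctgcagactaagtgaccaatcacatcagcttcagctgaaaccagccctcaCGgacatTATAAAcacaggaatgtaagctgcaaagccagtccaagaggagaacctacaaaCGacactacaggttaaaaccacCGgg

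The 5 windows held 41, 26, 21, 11 and 5 CG dinucleotides in that order, against a median of 10 over the 70 member promoters and 7 over all 32851 promoters in the table. In Kcnj13 the TATAAA motif began 29 bases before the annotated start. Searched on both strands, TATAAA lay in 4 of 70 member promoters (5.71%) and in 13.6% of all promoters. GGGCGG lay in 35 (50%) against 35.7%, and CCAAT in 20 (28.6%) against 37.4%. CANNTG, the letters bound by proneural factors and many other bHLH proteins, lay in 51 (72.9%) against 72.3%, and its form CAGATG in 12 (17.1%) against 17.2%. Each match of GGGCGG contains a CG, and each CAGATG is also a CANNTG. These are matches of letters and not measured binding.

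Per kilobase of annotated exon, abundant potassium channel transcripts included those of 2 TREK leak channels and of the pore subunit of neuronal ATP-sensitive channels. The mean of the 5 group means was 10.7 CPM per kb for Kcnk2 (TREK-1), 9.15 for Kcnj11 (the ATP-sensitive channel pore), 8.22 for Kcnk10 (TREK-2), 7.64 for Kcnn1 (an SK channel) and 6.90 for Kcna3 (a Shaker-type Kv channel). Kcnq3, an M-current subunit, was at 5.70 CPM per kb, and Kcnj3, the last of the 14 shown in the plot of levels per length, at 3.05 CPM per kb.

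**Figure D1:**
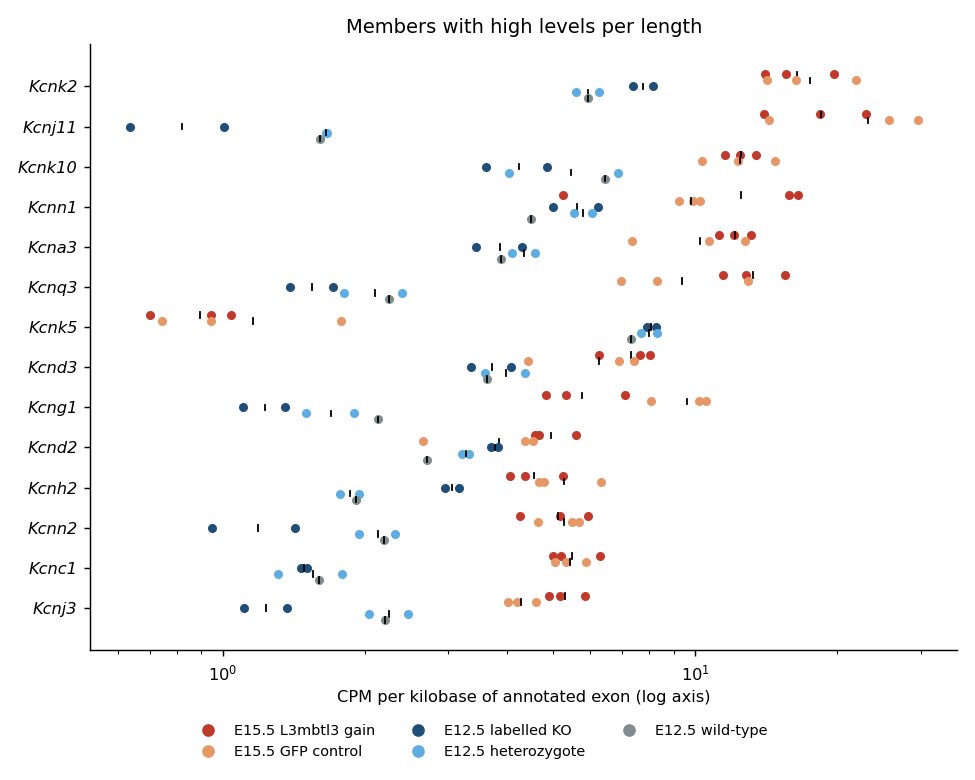
Level of 14 members with a high mean per length, in CPM per kilobase of annotated exon on a log axis, with 1 point per library and a tick at each group's mean. The sorted E15.5 groups lie to the right of the E12.5 groups for most genes, with Kcnk5 on the other side and Kcnd2 and Kcnn1 overlapping.

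The order differed between the materials. In GFP control cells the leading genes of those shown were Kcnj11 (mean 23.2 CPM per kb), Kcnk2 (17.5), Kcnk10 and then Kcna3, which alone was at 10.3. The library values of Kcnj11 and Kcnk2 overlapped. In E12.5 controls they were Kcnk5 (7.75), a K2P leak channel, then Kcnk2 (5.92), Kcnk10 (5.78) and Kcnn1 (5.36). Summed over all 79 members, counts came to 1192 to 1315 CPM in gain libraries, 1105 to 1194 CPM in GFP controls, 493 to 547 CPM in the libraries labelled KO and 501 to 571 CPM in E12.5 controls. The sum in GFP controls was thus 2.16 times that in E12.5 controls.

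The widest differences among these genes lay between sorted GFP control cells of E15.5 and E12.5 control tissue. Age, cell sorting, electroporation and genotype differ together there and cannot be told apart, so the comparison sets one material against another. Of 58 members tested, 30 were higher in the sorted cells (51.7%, against 31.1% of the 15968 genes tested) and 17 lower (29.3%, against 31.3%), by edgeR's quasi-likelihood test at a Benjamini-Hochberg adjusted p under 0.05 over all genes tested. Together that was 47, where 62.3% of all genes were called. The median log2 fold change was 0.86 over these members and -0.02 over all genes tested. On plain CPM the libraries did not overlap for 27 members above and 18 below, and for 25.6% of all genes tested above and 48.5% below (74.1% in all). Of the 58, 11 passed the count filter only through the E12.5 controls (Kcna5, Kcnc4, Kcne3, Kcne4, Kcnj5, Kcnj8, Kcnj13, Kcnj15, Kcnk13, Kcnn4 and Kcnq1) and Kcnk12 only through the sorted cells. Such genes had to differ, so these counts and the values of the 12 genes are descriptions. Fold changes carry a normalisation factor that places them about 0.27 above the log2 ratio of the plain CPM values given with them, the median over all genes being -0.30 with library totals alone.

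The sorted cells also differed in cell types. Markers of neurons (6 of 6 higher) summed to 5028 to 6445 CPM in GFP controls and 1938 to 2150 CPM in E12.5 controls. Markers of apical progenitors (5 of 6 lower) summed to 369 to 1071 CPM in GFP controls and 2555 to 2621 CPM in E12.5 controls. All markers tested of choroid plexus (7), endothelial cells (6), pericytes (5), meninges (5) and erythroid cells (4) were lower in GFP controls, where the sums were 8.70 to 20.8, 8.65 to 10.3, 3.70 to 15.7, 4.93 to 36.3 and 12.2 to 46.9 CPM, against 580 to 663, 360 to 426, 132 to 158, 875 to 993 and 456 to 539 CPM in E12.5 controls. No marker of these lists was at 0 in every library of a group. In bulk RNA, fewer cells of a type and less RNA per cell cannot be told apart, and the part of these cell types in the channel results was not tested.

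**Figure D2:**
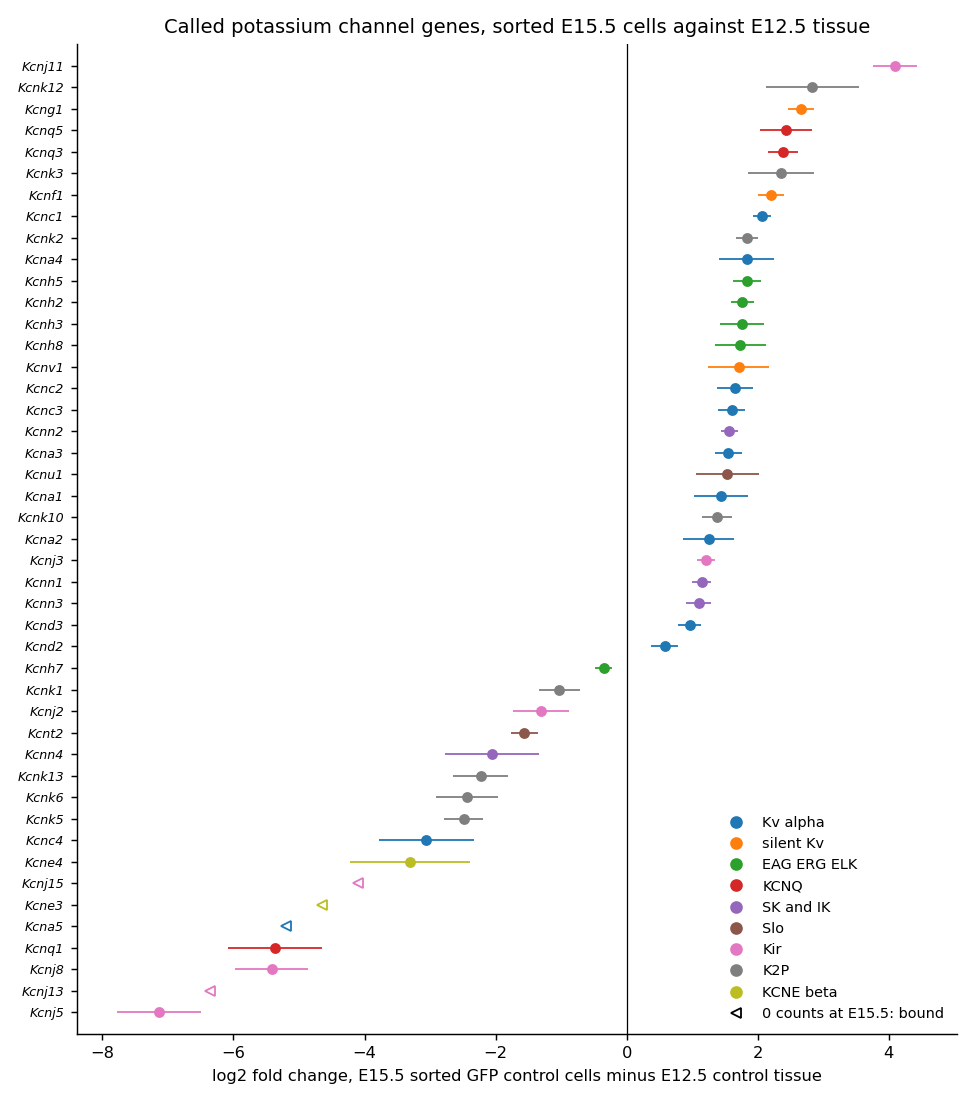
Log2 fold change of 45 of the 47 called members, sorted E15.5 GFP control cells minus E12.5 control tissue, with bars of 1 SE; colours give families. Open triangles mark 4 genes with 0 counts in all 3 GFP controls, drawn at the smallest fold on plain CPM that 3 counts over the group allow. Unlike the other points, the triangles carry no normalisation factor. Values run down from 4.10 for Kcnj11, with Kcnq3 and Kcnq5 on the right and Kcnq1 on the left.

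Of the 5 KCNQ genes, 4 were higher in the sorted cells and 1 lower. Kcnq3, an M-current subunit, was at 185, 118 and 99.4 CPM in GFP controls, against 25.7, 34.2 and 32.0 CPM in E12.5 controls (log2 fold change 2.39 ± 0.23 SE, adjusted p = 0.000219). It was higher in every sorted library than in any E12.5 control. Kcnq5, another M-current subunit, was at 8.34, 13 and 20.6 CPM in GFP controls, against 2.48, 3.81 and 3.25 CPM in E12.5 controls, again without overlap (2.43 ± 0.39, adjusted p = 0.00194). Kcnq1, the KCNQ gene of heart and epithelia, had 1 count in all 3 GFP controls and 69 counts in the 3 E12.5 controls. It passed the count filter only through the E12.5 controls, so its lower level was fixed in advance. The ratio of E12.5 over GFP control was 65.8, with a 95% counting interval of 11.4 to 2636 that does not cover variation between libraries.

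Among Kv pore-forming subunits, 9 of 15 tested were higher in the sorted cells and 2 lower. The 2 lower, Kcna5 and Kcnc4, passed the count filter only through the E12.5 controls and so had to be lower. Kcnc1, a fast delayed rectifier of rapidly firing neurons, was at 53.7, 48.7 and 46.0 CPM in GFP controls and 12.0, 16.3 and 14.6 CPM in E12.5 controls, groups that did not overlap (2.06 ± 0.14, adjusted p = 6.36e-05). Kcna4, an inactivating A-type channel, rose by 1.83 ± 0.42, and Kcnd3, another A-type channel, by 0.96 ± 0.18. Kcnd2, which carries somatodendritic A-type current, was at 22.5, 23.4 and 13.7 CPM in GFP controls and 17.1, 16.5 and 13.9 CPM in E12.5 controls (0.58 ± 0.21, adjusted p = 0.0434). Its groups overlapped, and its call was lost without any 1 of GFP control replicates 1 and 2 or the 3 E12.5 controls (adjusted p of 0.0843, 0.137, 0.0884, 0.101 and 0.146) and with library totals alone (0.246). Kcna5, known from heart and smooth muscle and from some glia, had 0 counts in the GFP controls and 116 in the E12.5 controls. It was at least 36.9-fold lower in the sorted cells, with the limit of 3 counts taken over the whole group (0.0501 CPM). This limit and those of the other genes with 0 counts are on plain CPM, without the normalisation factor of the fitted folds. Kcnc4 was at 0.144, 0 and 0.0481 CPM in GFP controls, against 0.638, 0.968 and 0.559 CPM in E12.5 controls.

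Silent Kv subunits rose in 3 of 4 cases tested. Kcng1 was at 36.3, 47.5 and 46.0 CPM in GFP controls and 6.75, 8.53 and 9.61 CPM in E12.5 controls (2.66 ± 0.19, adjusted p = 8.51e-05). Kcnf1 rose by 2.2 ± 0.20 and Kcnv1 by 1.71 ± 0.47, the Kcnv1 call being lost without heterozygote replicate 1 or 2 or the wild-type library (adjusted p of 0.0608, 0.0556 and 0.0587). In the EAG, ERG and ELK family 4 of 7 were higher, among them Kcnh2, the ERG channel of cardiac repolarisation, which was at 23.1, 22.7 and 30.7 CPM in GFP controls, against 9.42, 8.59 and 9.26 CPM in E12.5 controls (1.77 ± 0.18, adjusted p = 0.000273). Kcnh7, a brain ERG channel, was lower, at 30.6, 24.7 and 23.0 CPM in GFP controls and 36.3, 40.5 and 43.6 CPM in E12.5 controls (-0.35 ± 0.12, adjusted p = 0.0426). That call was lost without GFP control replicate 2 or 3 or any E12.5 control (adjusted p of 0.131 and 0.0718, and 0.0570, 0.119 and 0.159 without heterozygote replicates 1 and 2 and the wild-type library). The 3 SK genes Kcnn1, Kcnn2 and Kcnn3 rose by 1.14 ± 0.14, 1.57 ± 0.13 and 1.10 ± 0.19. Of the sodium-activated channels, Kcnt2 fell by 1.57 ± 0.21 on the log2 scale and Kcnt1 did not pass the test (-0.05 ± 0.30).

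Leak channels divided evenly, with 4 of 8 higher and 4 lower. The count filter had fixed the direction of Kcnk12, which was higher, and of Kcnk13, which was lower. Kcnk2 was at 70.3, 108 and 80.7 CPM in GFP controls, against 27.6, 30.9 and 29.3 CPM in E12.5 controls (1.84 ± 0.17, adjusted p = 0.000213), and Kcnk10 rose by 1.38 ± 0.22. Kcnk3, an acid-sensitive TASK channel, rose by 2.35 ± 0.51 from low counts. Kcnk12 was at 1.58, 0.712 and 3.27 CPM in GFP controls, against 0.15, 0.424 and 0.407 CPM in E12.5 controls. Kcnk5 was at 5.99, 3.18 and 2.50 CPM in GFP controls and 27.9, 25.8 and 24.6 CPM in E12.5 controls (-2.48 ± 0.30, adjusted p = 0.00054). Kcnk6 and Kcnk1 fell by 2.43 ± 0.47 and 1.03 ± 0.31, the Kcnk1 call being lost without GFP control replicate 2 or any E12.5 control (adjusted p of 0.0503, and 0.0867, 0.0682 and 0.0823 without heterozygote replicates 1 and 2 and the wild-type library).

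Inward rectifiers held the largest fitted rise. Kcnj11, the pore of ATP-sensitive channels in neurons and pancreatic beta cells, was at 16.8, 30.1 and 34.8 CPM in GFP controls and at 1.95, 1.94 and 1.88 CPM in E12.5 controls (4.10 ± 0.34, adjusted p = 0.000125). Its regulatory subunit Abcc8, the sulfonylurea receptor of those cells, was at 81.9, 87.2 and 155 CPM in GFP controls, against 4.84, 4.30 and 5.09 CPM in E12.5 controls (4.79 ± 0.33). Kcnj8, the pore of ATP-sensitive channels in vascular muscle and pericytes, was at 0, 0.109 and 0.0962 CPM in GFP controls and 3.94, 3.63 and 3.66 CPM in E12.5 controls. Abcc9, its usual receptor subunit and one of the 5 pericyte markers summed above, was at 0.288, 0.383 and 0.0962 CPM in GFP controls, against 18.5, 22.3 and 18.7 CPM in E12.5 controls (-6.00 ± 0.34). The sorted cells were high in one pore and receptor pair and low in the other. Libraries did not overlap for any of the 4 genes, as for 74.1% of all genes tested. Kcnj8 passed the count filter only through the E12.5 controls, so its lower level was fixed in advance. The same holds for Abcc9, whose GFP control values all lay under the filter's 0.494 CPM.

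**Figure D3:**
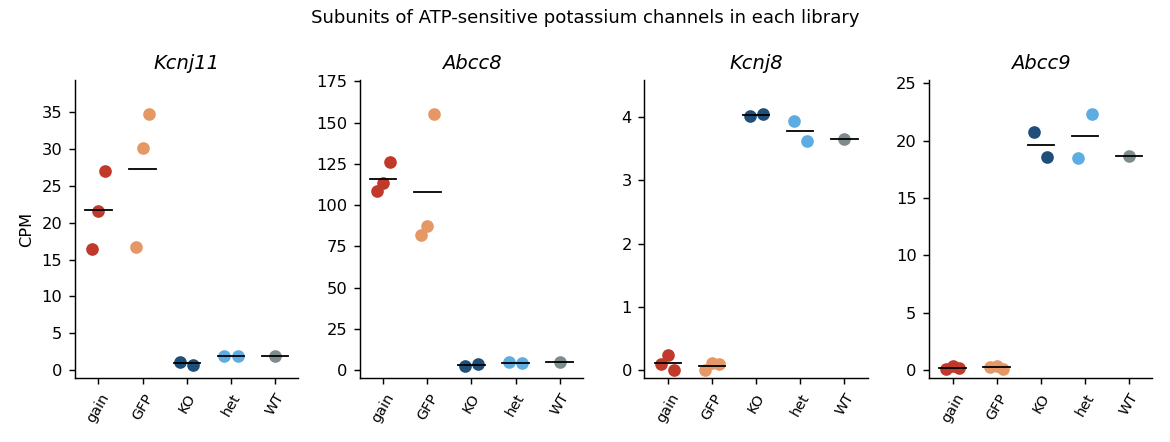
CPM of the 2 pore genes of ATP-sensitive channels and of their receptor subunits in each of the 11 libraries, with a line at each group's mean; vertical axes differ. Kcnj11 and Abcc8 are high in the sorted E15.5 groups (gain and GFP), and Kcnj8 and Abcc9 in the E12.5 groups (KO, het and WT).

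Kcnj13, an inward rectifier known from choroid plexus and retinal pigment epithelium, had 0 counts in the GFP controls and 259 in the E12.5 controls, at least 82.3-fold lower in the sorted cells. Kcnj5, a G-protein-gated channel best known from heart, had 3 counts in the GFP controls and 603 in the E12.5 controls, a ratio of E12.5 over GFP control of 192 with a 95% counting interval of 65.3 to 932. Kcnj15 had 0 counts in the GFP controls and 54 in the E12.5 controls, at least 17.2-fold lower. The accessory subunit Kcne3 had 0 counts in the GFP controls and 79 in the E12.5 controls, at least 25.1-fold lower. Kcne4, another accessory subunit, was at 0.288, 0 and 0 CPM in GFP controls and 0.900, 1.69 and 1.17 CPM in E12.5 controls. Each of Kcnj13, Kcnj5, Kcnj15, Kcne3 and Kcne4 passed the count filter only through the E12.5 controls, so its lower level was fixed in advance. Kcnj2, a classical strong rectifier, fell by 1.30 ± 0.43, and 4 of its 6 omissions ended the call at adjusted p of 0.05 or above, namely those of GFP control replicate 1 (0.05) and of heterozygote replicates 1 and 2 and the wild-type library (0.0720, 0.0987 and 0.0888). Kcnj3, the main partner in neuronal G-protein-gated channels, rose by 1.21 ± 0.14. Kcnj10, the rectifier of astrocytes and other glia, did not pass the test and spread widely among the sorted libraries, at 26.3, 13.1 and 5.19 CPM in GFP controls 1 to 3 against 11.3, 12.2 and 7.93 CPM in E12.5 controls (0.75 ± 0.51, adjusted p = 0.237, and 0.0127 at a log2 fold change of 1.16 without GFP control replicate 3). In the same 3 GFP controls, markers of apical progenitors summed to 1071, 739 and 369 CPM, those of astrocyte and oligodendrocyte lineages to 721, 529 and 182 CPM, and those of ventral telencephalon to 782, 241 and 12.6 CPM. Their part in this spread was not tested.

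The CG content of the members' promoters is given as a description. Taking for each gene the start with the most CG, the 18 members higher in sorted cells that had a promoter in the table held a median of 20 CG dinucleotides and the 15 lower ones a median of 10, with ranges of 3 to 41 and 2 to 26. At least 10 were found in 16 (88.9%) of the higher and 8 (53.3%) of the lower genes. Most of these lower genes passed the count filter only through the E12.5 controls, as listed above, and so had to be lower. The other lower genes, Kcnh7, Kcnj2, Kcnk1, Kcnk5 and Kcnt2, held 21, 18, 10, 26 and 12. Among the higher genes, Kcnk12 passed the filter only through the sorted cells. The 6 members tested and not called had a median of 22, with at least 10 in 4 (66.7%), and the 16 not tested a median of 7, with at least 10 in 7 (43.8%). Of all single promoters in the table, 43.5% held at least 10. Kcnk5, printed above, has 26 and was lower.

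Of 28 other channel and partner genes (KCa, HCN, beta and receptor subunits, and scaffolds), 23 were tested here, of which 13 were higher and 3 lower in the sorted cells. Beside Abcc8 and Abcc9, the pacemaker channels Hcn2 and Hcn3 rose by 3.19 ± 0.27 and 2.12 ± 0.21.

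The libraries labelled KO and the E12.5 controls are the same dissection at one age. Of 58 members tested, 3 were higher (5.17%, against 3.63% of the 16361 genes tested) and 7 lower (12.1%, against 3.78%) in the libraries labelled KO, 17.2% in all against 7.41%. The median log2 fold change was 0.01 over the members and -0.000173 over all genes. On plain CPM, libraries did not overlap for 13 members above and 14 below, and for 18.1% of all genes tested above and 20.5% below (38.6% in all). Kcna4 passed the count filter only through the controls. All 15 Kv pore-forming subunits tested and all 5 KCNQ genes stayed under the threshold, and the 10 called genes were 4 of 11 Kir, 2 of 4 SK and IK, 2 of 7 EAG, ERG and ELK, 1 of 7 K2P and 1 of 4 silent Kv genes. The E12.5 controls also served in the comparison with sorted cells, so the values of both comparisons are not independent.

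**Figure D4:**
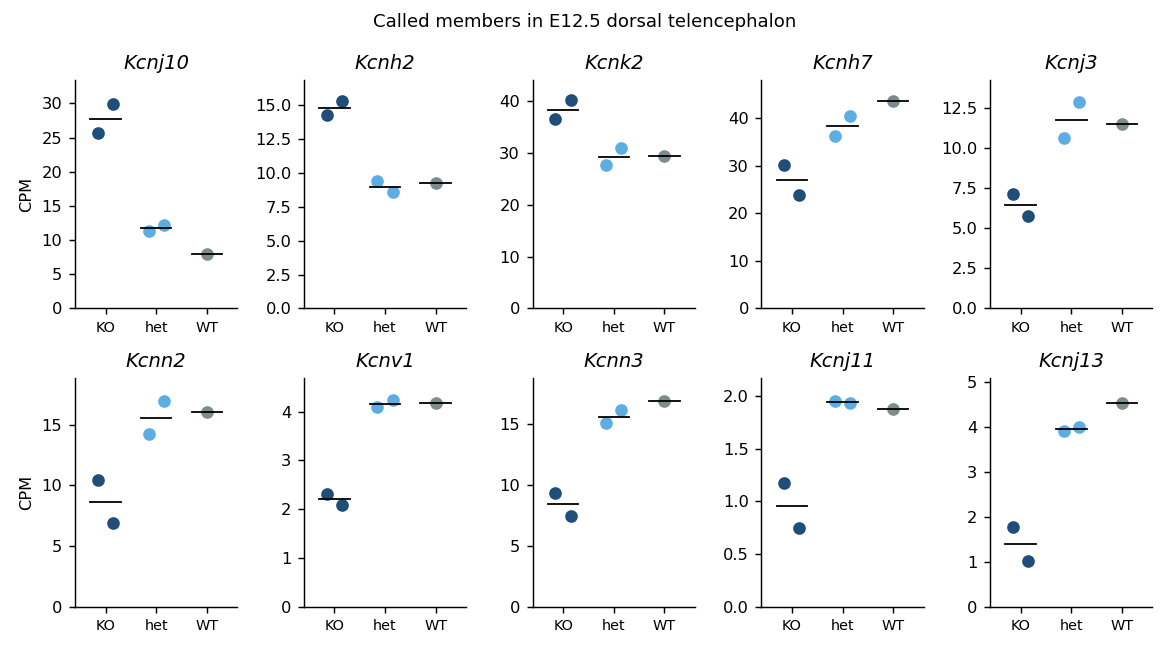
CPM of the 10 called members in the E12.5 libraries, with KO on the left, then heterozygote (het) and wild-type (WT), 1 point per library and a line at each group's mean. For each gene both KO points lie on one side of all 3 control points.

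Kcnj10 and Kcnj13, 2 inward rectifiers of glia and epithelia, moved in opposite directions. Kcnj10 was at 25.6 and 29.9 CPM in the libraries labelled KO, against 11.3 and 12.2 CPM in the heterozygotes and 7.93 CPM in the wild-type library, and so was higher in both (1.42 ± 0.16, adjusted p = 0.00201). Kcnj9, its neighbour 11.9 kb away on chromosome 1, was at 1.28 and 1.26 CPM in the libraries labelled KO, against 1.80, 1.69 and 1.83 CPM in E12.5 controls, and did not pass the test (-0.48 ± 0.24). Kcnj13 was at 1.77 and 1.02 CPM in the libraries labelled KO, against 3.90, 3.99 and 4.53 CPM in E12.5 controls (-1.56 ± 0.24, adjusted p = 0.00278). Choroid plexus markers moved with it: 5 of 7 were lower, and their sum was 279 to 286 CPM in the libraries labelled KO and 580 to 663 CPM in E12.5 controls. Their part in the Kcnj13 result was not tested. Sums of apical progenitor markers were 2668 to 2867 CPM in KO and 2555 to 2621 CPM in E12.5 controls, with 0 of 6 called, and sums for astrocyte and oligodendrocyte lineages were 437 to 469 CPM in KO and 518 to 540 CPM in E12.5 controls, with 1 of 7 higher and 2 lower.

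The small-conductance calcium-activated channels fell in 2 of 3 cases. Kcnn3 was at 9.37 and 7.49 CPM in the libraries labelled KO, against 15.1, 16.2 and 16.9 CPM in E12.5 controls (-0.92 ± 0.12, adjusted p = 0.000854). Kcnn2 was at 10.4 and 6.93 CPM in the libraries labelled KO, against 14.2, 16.9 and 16.1 CPM in E12.5 controls (-0.85 ± 0.16, adjusted p = 0.0120, and 0.0533 without the wild-type library). Kcnn1, the third SK gene, was at 25.3 and 20.2 CPM in the libraries labelled KO, against 22.5, 24.5 and 18.2 CPM in E12.5 controls, and its libraries overlapped (0.07 ± 0.13, adjusted p = 0.814). Kcnj3 was at 7.12 and 5.77 CPM in the libraries labelled KO, against 10.6, 12.8 and 11.5 CPM in E12.5 controls (-0.84 ± 0.13, adjusted p = 0.00329).

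The 2 ERG genes called had opposite signs. Kcnh2 was at 14.3 and 15.3 CPM in the libraries labelled KO, against 9.42, 8.59 and 9.26 CPM in E12.5 controls (0.71 ± 0.10, adjusted p = 0.00190). Kcnh7 was at 30.1 and 23.8 CPM in the libraries labelled KO, against 36.3, 40.5 and 43.6 CPM in E12.5 controls (-0.56 ± 0.11, adjusted p = 0.0183, and 0.0666 without heterozygote replicate 2). The leak channel Kcnk2 was higher, at 36.4 and 40.2 CPM in the libraries labelled KO and 27.6, 30.9 and 29.3 CPM in E12.5 controls (0.40 ± 0.07, adjusted p = 0.00687, and 0.0604 without KO replicate 2). The silent subunit Kcnv1 was lower, at 2.31 and 2.09 CPM in the libraries labelled KO, against 4.09, 4.24 and 4.17 CPM in E12.5 controls (-0.91 ± 0.18, adjusted p = 0.0106, and 0.0669 without KO replicate 2).

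The call of Kcnj11 depended on the setting. It was at 1.18 and 0.745 CPM in the libraries labelled KO and 1.95, 1.94 and 1.88 CPM in E12.5 controls (-1.0 ± 0.27, adjusted p = 0.0477). The call was lost without heterozygote replicate 1 or 2, KO replicate 2 or the wild-type library (adjusted p of 0.100, 0.107, 0.324 and 0.108) and with DESeq2 (0.230). Its receptor gene Abcc8 had a log2 fold change of -0.57 ± 0.18 and did not pass the test (adjusted p = 0.0808). Kcnh3, an ELK channel of forebrain neurons, and Kcnb2, a delayed rectifier, missed the threshold with log2 fold changes of -0.82 ± 0.23 and 0.61 ± 0.16 (adjusted p of 0.0529 and 0.0584). Leaving out heterozygote replicate 1 added calls for Kcnk10 (-0.65, adjusted p = 0.0222) and Kcnq3 (-0.58, adjusted p = 0.00913). Kcnq3 was also called by DESeq2 (adjusted p = 0.0173) and by edgeR without a count filter (9.6e-07), and Kcnd2 by edgeR without that filter (0.0204).

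Neuronal markers summed to 1685 to 1898 CPM in the libraries labelled KO and 1938 to 2150 CPM in E12.5 controls (2 of 6 lower). Intermediate progenitor markers summed to 511 to 533 CPM in KO and 621 to 665 CPM in E12.5 controls (2 of 4 lower), and ventral telencephalon markers to 78.5 to 100 CPM in KO and 41.7 to 69.9 CPM in E12.5 controls (3 of 8 higher). The part of these cell types in the 10 calls was not tested. Of the 23 other channel and partner genes tested, 0 were higher and 2 lower. Kcnip3, an EF-hand protein that binds A-type Kv channels and also acts in transcription, was at 8.25 and 7.17 CPM in the libraries labelled KO, against 14.6, 18 and 18.2 CPM in E12.5 controls (-1.12 ± 0.13, adjusted p = 0.000393). Its relative Kcnip1 had a log2 fold change of -0.69 ± 0.18 (adjusted p = 0.0401), a call lost without heterozygote replicate 1 or 2, KO replicate 2 or the wild-type library (adjusted p of 0.0922, 0.119, 0.221 and 0.0569). KO replicate 2 was the only E12.5 library classed as female. A term for embryo sex therefore fits that library alone and leaves KO replicate 1 to set the fold changes, so sex and that library cannot be told apart. With the term, log2 fold changes were -0.41 for Kcnh7, 0.32 for Kcnk2, -0.85 for Kcnv1 and -0.71 for Kcnj11. With all 11 libraries in a single fit 0 members were called, where 0.0879% of all genes tested were called.

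In sorted E15.5 cells, the gain of L3mbtl3 came with no called potassium channel gene. Of 46 members tested, 0 passed the threshold by edgeR, against 0.0136% of the 14698 genes tested (0.00680% higher and 0.00680% lower). By DESeq2 1 of 49 passed, against 0.499% of 16229 genes. At an unadjusted p under 0.05 there were 7 members (15.2%), against 8.60% of all genes. The median log2 fold change was 0.13 over the members and -0.03 over all genes. On plain CPM, libraries did not overlap for 6 members above and 2 below, and for 7.82% of all genes tested above and 8.52% below (16.3% in all). Microglia markers summed to 5.15 to 8.33 CPM in gain libraries and 15.9 to 37.1 CPM in GFP controls, and endothelial markers to 2.15 to 4.27 CPM in gain libraries and 8.65 to 10.3 CPM in GFP controls. No marker of any cell type list was called (edgeR), and the part of these cells and of the ventral markers given above was not tested. The GFP controls are shared with the comparison of sorted cells and tissue, so the fold changes of both are not independent.

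**Figure D5:**
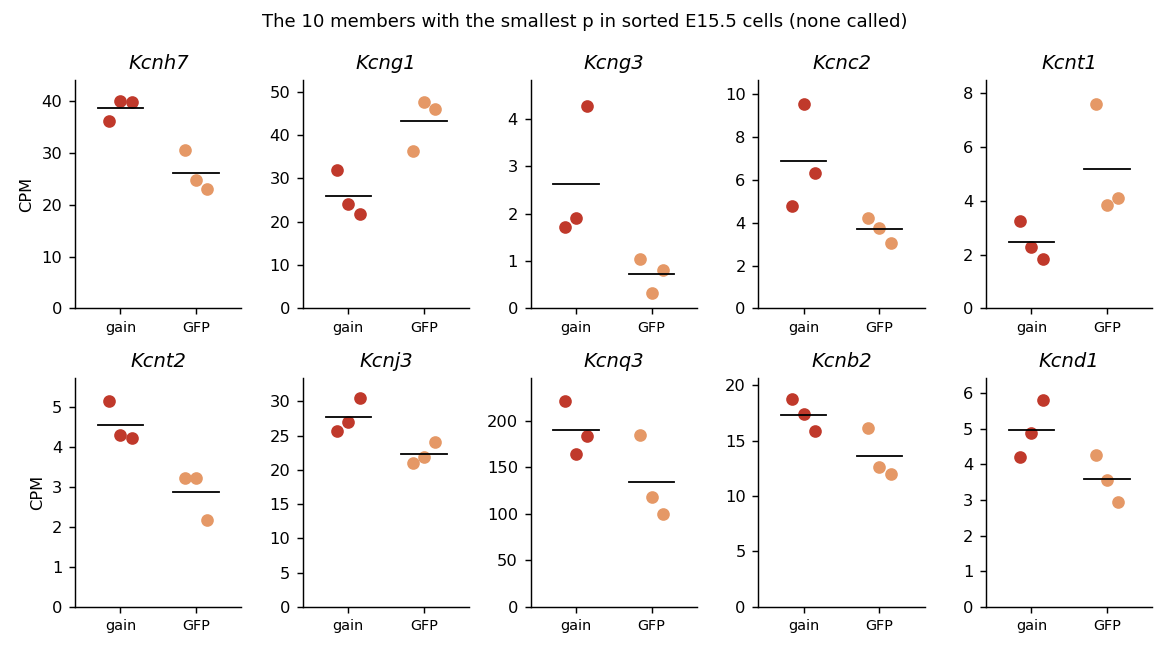
CPM of the 10 members with the smallest p in gain (left) and GFP control (right) libraries, 1 point per library and a line at each group's mean. None was called; Kcng1 and Kcnt1 are lower in gain libraries and the other 8 higher.

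Kcnh7 and Kcng1 had the smallest p. Kcnh7 was at 36.1, 39.9 and 39.8 CPM in gain libraries, against 30.6, 24.7 and 23.0 CPM in GFP controls (0.57 ± 0.13, adjusted p = 0.463). DESeq2 called it at an adjusted p of 0.0499. Kcng1 was at 32.0, 24.0 and 21.7 CPM in gain libraries, against 36.3, 47.5 and 46.0 CPM in GFP controls (-0.74 ± 0.18, adjusted p = 0.463). Neither gene's groups overlapped. Without GFP control replicate 1, 3 of 46 members were called, where 415 of 14992 genes (2.77%) were called. They were Kcnh7 (0.69, adjusted p = 0.0433), Kcnq3 (0.79, 0.0433) and Kcng1 (-0.86, 0.0484). Of the GFP controls, that library had the highest sums of ventral, apical progenitor, and astrocyte and oligodendrocyte markers.

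Kcng3, a silent subunit, was at 1.72, 1.91 and 4.27 CPM in gain libraries, against 1.05, 0.328 and 0.818 CPM in GFP controls (1.83 ± 0.56, adjusted p = 0.519), so that all gain values lay above the controls but 1 of them set much of the mean. Kcnq3 was at 221, 164 and 183 CPM in gain libraries and 185, 118 and 99.4 CPM in GFP controls, which overlapped (0.51 ± 0.22). The sodium-activated genes had opposite signs, Kcnt1 at 3.24, 2.30 and 1.85 CPM in gain libraries against 7.57, 3.83 and 4.09 CPM in GFP controls (-1.06 ± 0.35), and Kcnt2 at 5.15, 4.31 and 4.22 CPM in gain libraries against 3.21, 3.23 and 2.16 CPM in GFP controls (0.68 ± 0.24). The others by this rule were Kcnc2 (0.91 ± 0.30), Kcnd1 (0.48 ± 0.24), Kcnb2 (0.36 ± 0.16) and Kcnj3 (0.31 ± 0.13).

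Genes abundant in sorted cells were not called between the arms. Kcnk2 averaged 81.2 ± 14.3 CPM in gain libraries and 86.4 ± 19.6 CPM in GFP controls (SD, n = 3 each; log2 fold change -0.09 ± 0.18), and Kcnj11 21.7 ± 5.30 CPM in gain libraries and 27.2 ± 9.34 CPM in GFP controls. Of the other channel and partner genes 20 were tested and 0 called. Genes at the lowest levels included Kcnk9, a TASK channel, with at most 2 counts in any library, and Kcnj16, with at most 2. A count of 0 allows up to 0.182 CPM in the shallowest library, so low expression in a few cells was not detectable at this depth.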

How the data were processed

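Stranded libraries of polyA-selected RNA were read from one end for 75 bases, per the labels' protocols. Per the file headers, the deposited raw counts were made with featureCounts 2.0.1, which counted exonic reads of the reverse strand and had no option set for reads mapping to several places. The submitters' processing notes name HISAT2 2.2.1, SAMtools 1.9, CASAVA 1.9, FastQC 0.11.8, deepTools 3.3.0 and the build GRCm38, and the annotation release is not given in the sources used here. Of 46078 identifiers, 45143 had a symbol, and 0 entries lacked a gene. Libraries of the same group varied beyond counting noise, so none duplicated another of its group. The single wild-type library and pairs across groups were not compared in this way.

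CPM is a gene's counts over the library total, without normalisation factors. The test was edgeR's robust quasi-likelihood test (version 4.0.16, R 4.3.3) after TMM scaling and filterByExpr. P-values are two-sided and were adjusted by Benjamini-Hochberg across every gene tested, with calls at an adjusted p under 0.05. SE is the absolute log2 fold change over the square root of F. DESeq2 1.42.0, library totals, no filter, a single fit, a replicate block, a sex term and each library left out were alternatives. The procedure was tested on simulated data. Named genes were the called members (at most 12 per direction), the 10 with the smallest p where fewer were called, the 15 highest per length and a fixed set. Genes outside that rule, such as Kcnj9, Kcnn1 and Kcnh3, were named after their values were seen. Members, lists and rules were chosen with earlier results of these data known. The values of some single genes are not reported here, though counts and summed levels over all members include them. Promoters came from RefSeq (GRCm38.p6). CD15+ samples of the design were not analysed here. Counting limits and intervals were taken on counts pooled over the libraries of a group, so they do not cover variation between libraries. Nor do they cover PCR duplication, since no molecular identifiers were used.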

Additional observations from a re-analysis of the deposited data

How the results depend on the processing

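The count of members reaching 1 CPM in 3 libraries was 60 at 0.5 CPM, 46 at 2 CPM and 52 with TMM factors, against 53. In the gain comparison the number called was 1 with DESeq2, where 0.499% of all genes tested were called. It was 0 to 3 with a library left out. The 3 were reached without GFP control replicate 1, where 2.77% of all genes were called. In the comparison of KO with E12.5 controls it was 16 without a count filter, where 8.58% of all genes tested were called. In a single fit of all 11 libraries it was 0, against 0.0879% of all genes. With 1 E12.5 control left out it was 8 to 13, against 3.69% to 6.53% of all genes. Leaving out a KO library, or fitting the sex term, leaves 1 KO library to set the difference, so calls of those fits are not counted here. In the comparison of sorted cells with tissue it was 17 with the wild-type library as the only E12.5 control and 37 to 46 with a library left out. With a library left out, 47.8% to 69.3% of all genes tested were called there. The count of 17 rests on 1 E12.5 library and is not compared with a share of all genes. In the comparison of sorted cells with tissue a sex term could not be fitted, since all 6 libraries were classed as male. The cause of these shifts was not tested, apart from the smaller number of libraries where some were left out.

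Numbers shared by titles were not taken to pair the libraries, since not every correlation was over 0.1. Deviations correlated at 0.19, 0.03 and 0.33 for gain with GFP control and at -0.05 for KO with heterozygote, and gain replicates 1 and 3 matched their own number best, while gain replicate 2 matched GFP control replicate 1. With the replicate block, 0, 9 and 46 members were called in the gain, KO and sorted-cell comparisons, against 0, 10 and 47. Of all genes tested, 0.0204%, 5.79% and 65.9% were called, against 0.0136%, 7.41% and 62.3%. Kcnj10 turned to a log2 fold change of 0.0798 in the gain comparison. The block ended the call of Kcnj11 in the KO comparison (adjusted p = 0.078 by edgeR) and called Kcnj10 higher in sorted cells (1.15, adjusted p = 0.0137), where it ended the call of Kcnh7 (0.0882).

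Genes that changed sign were not called. In the gain comparison only gain replicate 2 was classed as male, like all GFP controls, so with the sex term that library alone set the difference. The log2 fold change of Kcnj2 was then 0.21. With a library left out, the ranges there were -0.5486 to 0.532 for Kcnj10, -0.6213 to 0.343 for Kcnj2, -0.082 to 0.1376 for Kcnk10, -0.2244 to 0.0914 for Kcnk2, -0.1632 to 0.0886 for Kcnn2 and -0.1159 to 0.5913 for Kcnq5. In the KO comparison the sex term, which fits KO replicate 2 alone, gave 0.0883 for Kcnd3, -0.0065 for Kcnk1 and 0.1016 for Kcnq1. With a library left out, the ranges were -0.1765 to 0.0864 for Kcnd3, -0.1675 to 0.0 for Kcnj2, -0.008 to 0.1391 for Kcnk1 and -0.2201 to 0.1001 for Kcnq1. Depth limits the genes near the filter, and only 2 libraries are labelled KO.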
